A study of Mus musculus with 24 samples.

Results

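Cyp2b10 and the receptors that control it, CAR and PXR, were followed in mouse liver after the plasticiser diethylhexylphthalate (DEHP), together with the related Cyp2b genes and the enzymes that serve P450s. The members were 8 named genes, taken as the probe sets annotated to each of them, and 6 of the 8 had at least 1 probe set, 10 in all, among 18193 genes with a probe set on the array. Cyp2b10 had 3 probe sets, Nr1i2 (PXR) and Alas1 had 2 each, and Cyp2b9, Cyp2b13 and Nr1i3 (CAR) had 1 each. Por, the reductase that passes electrons to microsomal P450s, and Cyp2b23 were not analysed here.

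The livers came from male B6C3F1 mice, a hybrid strain, 7 to 10 weeks old on arrival, which received DEHP at 1150 mg/kg or corn oil alone by gavage. Liver RNA was measured on 24 Affymetrix arrays at 2, 8, 24 and 72 h, with 3 arrays of each treatment at each time, so that there were 8 groups. Dosing was daily over 3 days, and the labels do not say how many doses preceded each time. The series mentions 6 mice while each group holds 3 arrays, and nothing states that each array is a separate animal, so the p-values measure the spread between these arrays.

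CAR and PXR are nuclear receptors of hepatocytes that sense drugs and other foreign chemicals. CAR rests in the cytoplasm in a complex with chaperones and moves to the nucleus when it is activated, where it pairs with RXR and switches on Cyp2b10, the classical CAR target gene of mouse liver. PXR, better known for the Cyp3a genes, binds many of the same elements. A P450 needs a haem group, made by a pathway whose rate-limiting enzyme in liver is Alas1. Cyp2b9 and Cyp2b13 are close relatives of Cyp2b10 that are known as female-biased liver genes.

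The Cyp2b genes lie in 1 cluster on chromosome 7, and their start regions are shown here because the members of this cluster gave different readings with DEHP. In RefSeq's GRCm38.p6 annotation Cyp2b10 spans chr7:25897658-25926624, Cyp2b13 chr7:26061388-26096197, Cyp2b9 chr7:26173350-26210661 and Cyp2b23 chr7:26665227-26686430. Each stretch runs from 120 bases before to 30 bases after the start used in RefSeq's promoter table, 150 bases in all. For Cyp2b9 and Cyp2b13 that start lies inside the gene span given here and not at its edge. Capitals mark a match to TTGCNNAA, the letters of a C/EBP-type site, which were chosen for display after the sequences had been read. The stretches are chr7:25897538-25897687 for Cyp2b10, chr7:26686401-26686550 (minus strand) for Cyp2b23, chr7:26173289-26173438 for Cyp2b9 and chr7:26061375-26061524 for Cyp2b13.
Cyp2b10: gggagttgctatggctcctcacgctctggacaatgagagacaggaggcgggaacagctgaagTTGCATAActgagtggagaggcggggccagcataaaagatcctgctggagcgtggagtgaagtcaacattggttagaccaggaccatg
Cyp2b23: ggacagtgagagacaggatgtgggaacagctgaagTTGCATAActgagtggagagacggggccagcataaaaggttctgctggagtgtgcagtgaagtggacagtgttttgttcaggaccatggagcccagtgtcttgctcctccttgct
Cyp2b9: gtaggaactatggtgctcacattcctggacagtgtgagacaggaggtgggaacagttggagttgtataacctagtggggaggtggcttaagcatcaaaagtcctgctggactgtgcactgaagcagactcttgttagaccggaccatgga
Cyp2b13: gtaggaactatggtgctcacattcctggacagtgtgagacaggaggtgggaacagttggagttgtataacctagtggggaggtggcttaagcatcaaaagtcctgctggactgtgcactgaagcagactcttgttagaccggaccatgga

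The Cyp2b9 and Cyp2b13 stretches were identical at every one of their 150 bases. Over the whole window of 300 bases, from 250 before to 50 after the start, these 2 genes shared 298 bases (99.3%). Cyp2b10 matched either of them at 229 of 286 aligned bases (80.1%) and matched Cyp2b23 at 225 of 259 (86.9%). The TTGCNNAA match began 58 bases before the start in Cyp2b10 and 85 bases before it in Cyp2b23. Cyp2b9 and Cyp2b13 had a match farther out, 180 bases before the start and beyond the stretch shown. Searched on both strands, TTGCNNAA occurred in 10.8% of 32851 promoter windows of the same length. The nuclear receptor half-site AGGTCA occurred in 16.3% of those windows and in the windows of Cyp2b9, Cyp2b13 and Cyp2b23, with no match in that of Cyp2b10. A pair of AGGTCA copies in the same direction with 4 bases of any kind between them occurred in 0.0152% of windows, and with 1 base between them in 0.0396%. Neither spaced repeat was found in a member's window. The distal enhancer of Cyp2b10 through which CAR is known to act lies outside these windows.

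Expression is given as the log2 signal of each probe set, on which a difference of 1 is a doubling. DEHP was compared with corn oil at each time by limma, with 1 mean per group over all 24 arrays and Benjamini-Hochberg adjustment over 45037 probe sets, and a probe set was called at an adjusted p under 0.05. Array medians ran from 6.46 to 6.55 and arrays of 1 group correlated at 0.989 to 0.996. All 7 measured hepatocyte markers stood at or above the 99.6th percentile of the probe sets. Corn oil 8 h replicate 2 had the largest 3' to 5' difference of the Actb control, 1.46 against 0.816 on the next array. At 8 h the third corn oil array and the second DEHP array carry the same number, RC14, in their titles, yet their values differed. The mean of 4 exocrine pancreas markers ran from 6.46 to 10.72 over the 24 arrays, highest on a DEHP 2 h array and next highest on a corn oil 72 h array (9.49). Whole liver was measured, so more RNA per cell cannot be told apart from more cells that express a gene.

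Cyp2b10 rose far above corn oil at 8 h on all 3 of its probe sets, stood near its control level at 24 h and was higher again at 72 h on 2 of the 3. With probe set 1425645_s_at the corn oil 8 h arrays read 6.59, 6.64 and 6.44 and the DEHP 8 h arrays 12.07, 12.11 and 10.86. The third DEHP array was the lowest of its group and still lay 4.22 above the highest corn oil array. The difference was 5.13 ± 0.30 (SE, n = 3 in each group), or 34.9-fold (limma adjusted p = 5.02e-10).

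Probe set 1422257_s_at gave the same picture, with 6.41, 6.37 and 6.02 in corn oil and 11.30, 11.24 and 10.08 with DEHP at 8 h. Its difference was 4.61 ± 0.25, or 24.3-fold (limma adjusted p = 1.92e-10). With 1451787_at the corn oil 8 h arrays read 7.01, 6.78 and 7.24 and the DEHP arrays 11.00, 10.88 and 9.87. Its difference was 3.58 ± 0.23, or 11.9-fold (limma adjusted p = 3.00e-09). The same DEHP array, replicate 3, was lowest on all 3 probe sets. These 3 were the only member probe sets called at 8 h, 3 of 10, where 2.64% of all probe sets were called and 1.17% were called higher. All 3 read the same gene, and its rise at 8 h was part of why it was chosen. The 8 h p-values of Cyp2b10 and this count are therefore given as a description. All 3 kept their call when any 1 of the 24 arrays was left out.

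The probe sets whose names end in s_at hold probes that match more than one transcript, so they can read transcripts of related genes too. Across the 24 arrays the 3 Cyp2b10 probe sets correlated at 0.964 to 0.994, a description dominated by the DEHP 8 h arrays. The fold at 8 h ran from 11.9 to 34.9 between them, and the source of that difference was not tested.

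**Figure D1:**
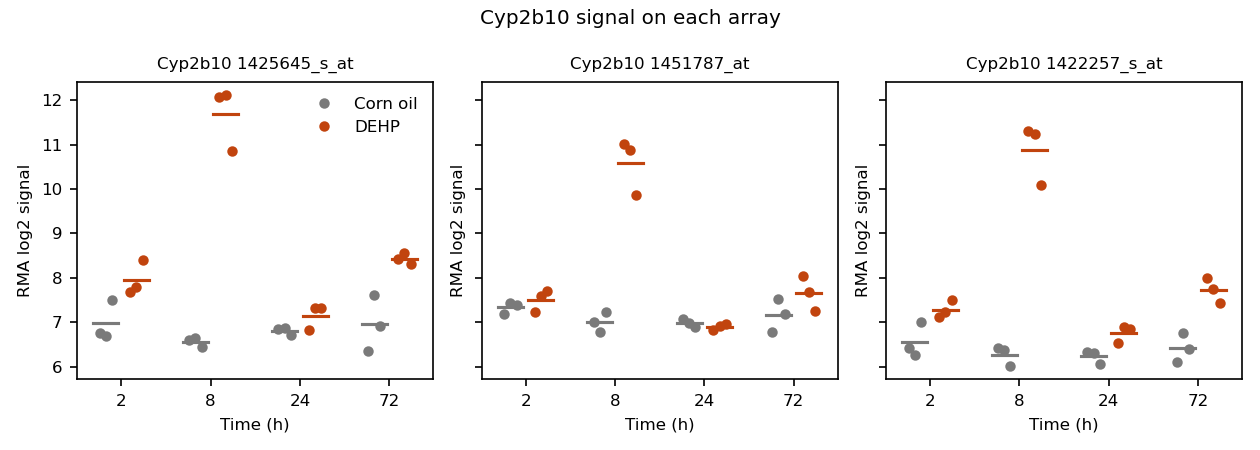
RMA log2 signal of the 3 Cyp2b10 probe sets (vertical axis) at 2, 8, 24 and 72 h (horizontal axis), with 1 point per array and a bar at each group's mean. The DEHP 8 h arrays stand alone at 9.87 to 12.11, and at 24 h the DEHP and corn oil points lie close together.

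At 2 h the DEHP arrays of 1425645_s_at read 7.67, 7.78 and 8.39 against 6.74, 6.69 and 7.50 in corn oil. Every DEHP array was above every corn oil array, but the difference of 0.97 ± 0.30 did not pass (limma adjusted p = 0.262). With 1422257_s_at the arrays were likewise separated, with a difference of 0.72 ± 0.25 (limma adjusted p = 0.378), and with 1451787_at they overlapped, with 0.18 ± 0.23 (limma adjusted p = 0.958). DEHP arrays all lay above corn oil arrays in 4.38% of probe sets at 2 h. No member probe set was called at that time, 0 of 10, against 0.431% of all probe sets. Limma's unadjusted p was under 0.05 for 5 of the 10 at 2 h (probe sets of Cyp2b10, Nr1i2 and Alas1). The same count was 5 at 8 h, 1 at 24 h and 4 at 72 h. The share of all probe sets under that limit is not given here, so these counts are a description.

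At 24 h Cyp2b10 read 6.82, 7.31 and 7.31 with DEHP and 6.85, 6.86 and 6.72 in corn oil on 1425645_s_at. These groups overlapped, and the difference was 0.34 ± 0.30 (limma adjusted p = 0.803). With 1451787_at the difference was -0.09 ± 0.23. With 1422257_s_at the arrays were separated, at 6.53 to 6.89 with DEHP and 6.05 to 6.32 in corn oil, with a difference of 0.53 ± 0.25 (limma adjusted p = 0.587). DEHP arrays all lay above corn oil arrays in 5.74% of probe sets at 24 h. No member was called at 24 h, 0 of 10, where 0.147% of all probe sets were called; only 1422257_s_at had an unadjusted p under 0.05.

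At 72 h the DEHP arrays of 1425645_s_at read 8.42, 8.55 and 8.32 and those of corn oil 6.35, 7.62 and 6.92. The groups did not overlap, and the corn oil arrays were the more scattered. The difference was 1.47 ± 0.30, or 2.76-fold (limma adjusted p = 0.0138). That call ended without DEHP 72 h replicate 2, with a difference of 1.40 (limma adjusted p = 0.0656). With 1422257_s_at the DEHP arrays read 8.00, 7.76 and 7.43 and those of corn oil 6.10, 6.76 and 6.38, and the difference was 1.32 ± 0.25 (limma adjusted p = 0.0088). This call held without any 1 array. With 1451787_at the groups overlapped, at 7.25 to 8.04 with DEHP and 6.77 to 7.53 in corn oil, with a difference of 0.50 ± 0.23 (limma adjusted p = 0.262). Thus 2 of 10 member probe sets were called at 72 h, where 1.96% of all probe sets were called and 0.575% were called higher. Both read the same gene and have names ending in s_at, so they can read related transcripts too. The Cyp2b10 probe set without that ending, 1451787_at, did not pass. At 2 and 24 h too, the Cyp2b10 probe sets with separated arrays were only those ending in s_at.

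Mean levels of several marker lists did not overlap between treatments. With 3 arrays against 3 such separation is not rare. DEHP arrays all lay above corn oil arrays in 4.38% of probe sets at 2 h, 5.62% at 8 h, 5.74% at 24 h and 10.2% at 72 h. The share with DEHP arrays all below is not given here. At 72 h the mean of 8 macrophage markers was 8.67 to 9.05 on the corn oil arrays and 8.16 to 8.47 on the DEHP arrays, and 1 of the 8, Cd5l, passed the test, lower with DEHP. The mean of 7 endothelial markers was 8.55 to 8.85 against 8.13 to 8.34, and 0 of the 7 passed, where 2.06% of genes were called lower. At 8 h, where 1.13% of genes were called higher and 2.4% lower, other lists were separated. The mean of 6 periportal hepatocyte markers was 10.36 to 10.44 in corn oil and 10.13 to 10.20 with DEHP at 8 h, with 2 of the 6 called lower. At the same time the mean of 8 pericentral hepatocyte markers was 10.15 to 10.48 against 10.11 to 10.13, and 0 of the 8 passed. The mean of 7 hepatocyte markers was 13.71 to 13.74 in corn oil and 13.77 to 13.82 with DEHP at 8 h, and 1 of the 7, Tat, was called higher. At 2 h the mean of 7 stellate cell markers was 8.47 to 8.59 against 8.10 to 8.43, and 0 of the 7 passed. The means of 4 neutrophil markers at 2 h (6.59 to 6.61 against 6.65 to 7.17 with DEHP), of 4 exocrine pancreas markers at 8 h (6.68 to 7.48 against 6.56 to 6.66) and of the 7 hepatocyte markers at 24 h (13.86 to 13.91 against 13.80 to 13.83) were separated too. The part of these markers in the Cyp2b10 differences was not tested.

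The levels of Cyp2b10 in the 8 groups followed an order on 1425645_s_at. DEHP at 8 h was highest, with a mean of 11.68 ± 0.71 (SD, n = 3). DEHP at 72 h followed at 8.43 ± 0.12 and DEHP at 2 h at 7.95 ± 0.39, and their arrays overlapped. Below them came DEHP at 24 h at 7.15 ± 0.29, corn oil at 2 h at 6.98 ± 0.45, corn oil at 72 h at 6.96 ± 0.63 and corn oil at 24 h at 6.81 ± 0.08, each overlapping the next. Corn oil at 8 h was lowest, at 6.55 ± 0.10, so that on this probe set the largest response was read against the lowest control level. The corn oil levels of 1425645_s_at did not differ between times by limma's F test (adjusted p = 0.768). On 1451787_at and 1422257_s_at the lowest corn oil mean was that of 24 h, at 6.98 and 6.23, against 7.01 and 6.27 at 8 h.

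Because the rise at 8 h was part of why Cyp2b10 was chosen, the contrast between times is given as a description. On 1425645_s_at the effect at 8 h exceeded that at 2 h by 4.16 ± 0.42, that at 24 h by 4.79 ± 0.42 and that at 72 h by 3.66 ± 0.42. The effect at 8 h exceeded that at 24 h by 3.67 ± 0.33 on 1451787_at and by 4.08 ± 0.35 on 1422257_s_at. At 24 h each of the 3 probe sets was within 0.53 of its control mean.

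**Figure D2:**
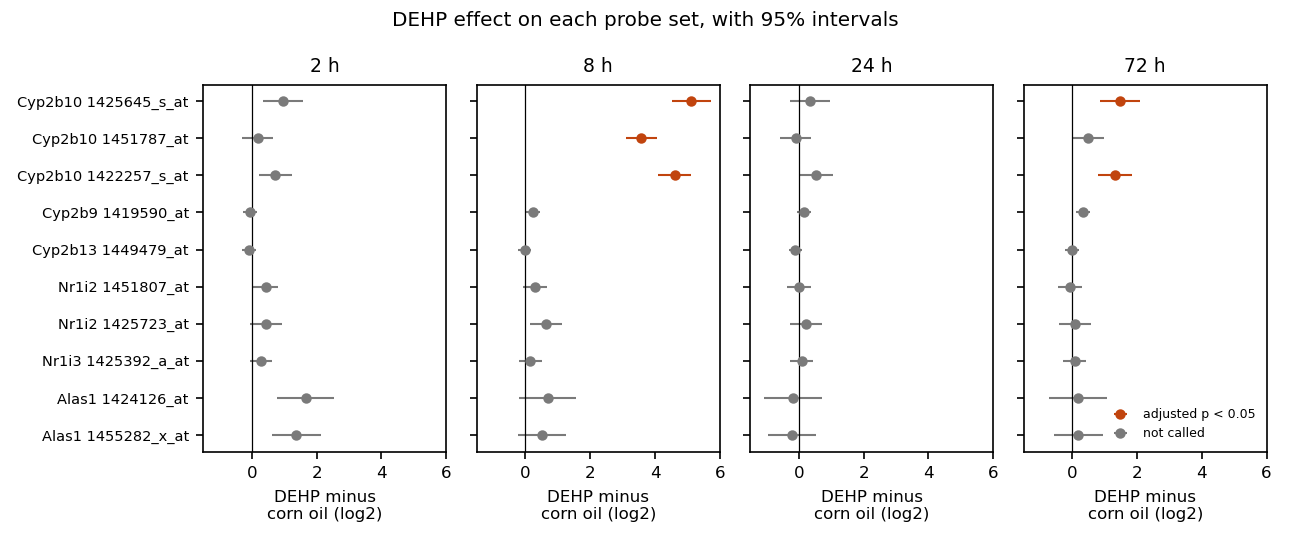
Difference between DEHP and corn oil in log2 signal (horizontal axis) for the 10 member probe sets (rows) at each time (panels), with 95% intervals from limma. Cyp2b10 is called at 8 h on 3 probe sets, at 3.58 to 5.13, and at 72 h on 2 of them, while every other interval lies below 3.

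The 2 relatives of Cyp2b10 read close to their controls. Cyp2b13 (1449479_at) stayed between 6.36 and 6.84 on all 24 arrays, and its differences ran from -0.11 to -0.01 over the 4 times, each with an SE of 0.10. At 8 h its 95% interval was -0.23 to 0.19, so that a rise in signal of the size seen for Cyp2b10 lay outside it. Its mean stood at the 52.7th percentile of probe sets, close to the array medians. Whether this single probe set would show a rise of the transcript was not tested. All 8 group ranges of Cyp2b13 overlapped their neighbours in the order of levels.

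Cyp2b9 (1419590_at) read between 5.09 and 5.65, and its mean stood at the 26.1th percentile of probe sets, near the low end of the signal range. At 8 h its arrays read 5.48, 5.52 and 5.59 with DEHP and 5.22, 5.52 and 5.18 in corn oil. They overlapped, with a difference of 0.22 ± 0.11 (95% interval 0.0041 to 0.45; limma adjusted p = 0.383). At 72 h the DEHP arrays read 5.65, 5.46 and 5.44 and the corn oil arrays 5.23, 5.15 and 5.18, without overlap. That difference of 0.33 ± 0.11 did not pass (limma adjusted p = 0.101), at a time when DEHP arrays all lay above corn oil arrays in 10.2% of probe sets. Among Cyp2b9's alternatives, estimated array weights alone brought it past the threshold (limma adjusted p = 0.0355). The differences between DEHP and corn oil at 8 h, 0.22 for Cyp2b9 and -0.02 for Cyp2b13, were far below the 3.58 to 5.13 of Cyp2b10. The promoters of Cyp2b9 and Cyp2b13 differ from each other at 2 of 300 bases, as shown above. Any part of promoter sequence in these differences was not tested.

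Neither receptor's transcript passed the test at any time in the comparison of group means. Nr1i3, which encodes CAR, read 10.36, 10.19 and 10.43 with DEHP at 8 h against 10.18, 9.92 and 10.42 in corn oil. The arrays overlapped, and the difference was 0.15 ± 0.17 (95% interval -0.20 to 0.51; limma adjusted p = 0.842). At 2 h the DEHP arrays, at 9.73, 9.53 and 9.53, lay above those of corn oil, at 9.07, 9.44 and 9.46, by 0.28 ± 0.17 (limma adjusted p = 0.821). Of all probe sets, 4.38% had DEHP arrays all above corn oil arrays at 2 h. At 24 and 72 h the differences were 0.08 ± 0.17 each.

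Nr1i3 was the only member whose corn oil level was called different between times with all arrays weighted equally. Corn oil arrays averaged 9.32 ± 0.22 (SD) at 2 h, 10.18 ± 0.25 at 8 h, 9.85 ± 0.09 at 24 h and 9.97 ± 0.29 at 72 h. Limma's F test over the 4 times gave F = 9.12 (adjusted p = 0.0266), and 2.42% of all probe sets passed it. The 8 h level exceeded the 2 h level by 0.86 ± 0.17 (limma adjusted p = 0.0072). This F call ended without corn oil 2 h replicate 1 (limma adjusted p = 0.155) or replicate 2 (0.0541), without corn oil 8 h replicate 1 (0.0601), without the 2 arrays numbered RC14 (0.0533) and with array weights (0.0637). In the order of all 8 groups both 2 h groups were lowest, and the upper 6, from DEHP at 8 h (10.33) to corn oil at 24 h (9.85), overlapped in turn.

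Nr1i2, which encodes PXR, had 2 probe sets that correlated at 0.928 over the 24 arrays. With 1451807_at the DEHP 2 h arrays read 9.37, 9.46 and 9.25 and those of corn oil 8.88, 8.84 and 9.10. They were separated, but the difference of 0.42 ± 0.18 did not pass (limma adjusted p = 0.605). With 1425723_at the 2 h arrays were also separated, at 8.97, 9.07 and 8.82 against 8.33, 8.53 and 8.70, by 0.43 ± 0.24 (limma adjusted p = 0.775). Such separation, with DEHP above, occurred in 4.38% of all probe sets at 2 h. At 8 h 1425723_at read 8.66, 9.45 and 9.34 with DEHP and 8.35, 8.35 and 8.88 in corn oil. Those groups overlapped, with a difference of 0.62 ± 0.24 (limma adjusted p = 0.218), and 1451807_at gave 0.31 ± 0.18 (limma adjusted p = 0.546). At 24 and 72 h the 2 probe sets gave differences of -0.07 to 0.20, with 95% intervals that reached from -0.45 to 0.70. On both probe sets the DEHP 8 h and DEHP 2 h groups had the highest means of the 8 groups.

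Alas1 had the largest 2 h differences of any member, and they did not pass. With 1424126_at the DEHP 2 h arrays read 13.08, 12.88 and 12.63 and those of corn oil 11.42, 11.89 and 10.28. The lowest DEHP array lay 0.74 above the highest corn oil array, and the difference was 1.66 ± 0.42, or 3.17-fold (limma adjusted p = 0.107). The second probe set, 1455282_x_at, read 10.90, 10.83 and 10.45 against 9.61, 9.82 and 8.61, a difference of 1.37 ± 0.36, or 2.59-fold (limma adjusted p = 0.128). Both passed when corn oil 24 h replicate 3 was left out (limma adjusted p = 0.022 and 0.0188), and 1424126_at also passed without corn oil 24 h replicate 1 (0.0445). Arrays separated in this direction at 2 h occurred in 4.38% of all probe sets.

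The corn oil arrays of 24 h were the most scattered, at 10.08, 11.00 and 12.41 on 1424126_at (SD 1.17). The DEHP 24 h arrays read 10.92, 11.61 and 10.39, inside that range, with a difference of -0.18 ± 0.42. At 8 h the DEHP arrays, at 13.28, 13.44 and 13.17, lay above those of corn oil, at 12.11, 12.67 and 13.05, by 0.69 ± 0.42 (limma adjusted p = 0.585). DEHP arrays all lay above corn oil arrays in 5.62% of probe sets at 8 h. At 72 h the difference was 0.17 ± 0.42. The 2 probe sets followed each other with r = 0.995 over the 24 arrays.

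Alas1 also varied with time in corn oil, from 11.20 ± 0.83 (SD) at 2 h and 12.61 ± 0.47 at 8 h to 11.16 ± 1.17 at 24 h and 11.86 ± 0.38 at 72 h. Limma's F test did not pass for 1424126_at (adjusted p = 0.133) or 1455282_x_at (0.0992), and both passed without corn oil 24 h replicate 3 (0.0106 and 0.0044). With array weights 1455282_x_at passed as well (limma adjusted p = 0.0433). The test that the DEHP effect itself differed between times did not pass for either Alas1 probe set (limma adjusted p = 0.334 and 0.340) or for any probe set of Cyp2b9, Cyp2b13, Nr1i2 or Nr1i3, while 1.09% of all probe sets passed it.

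**Figure D3:**
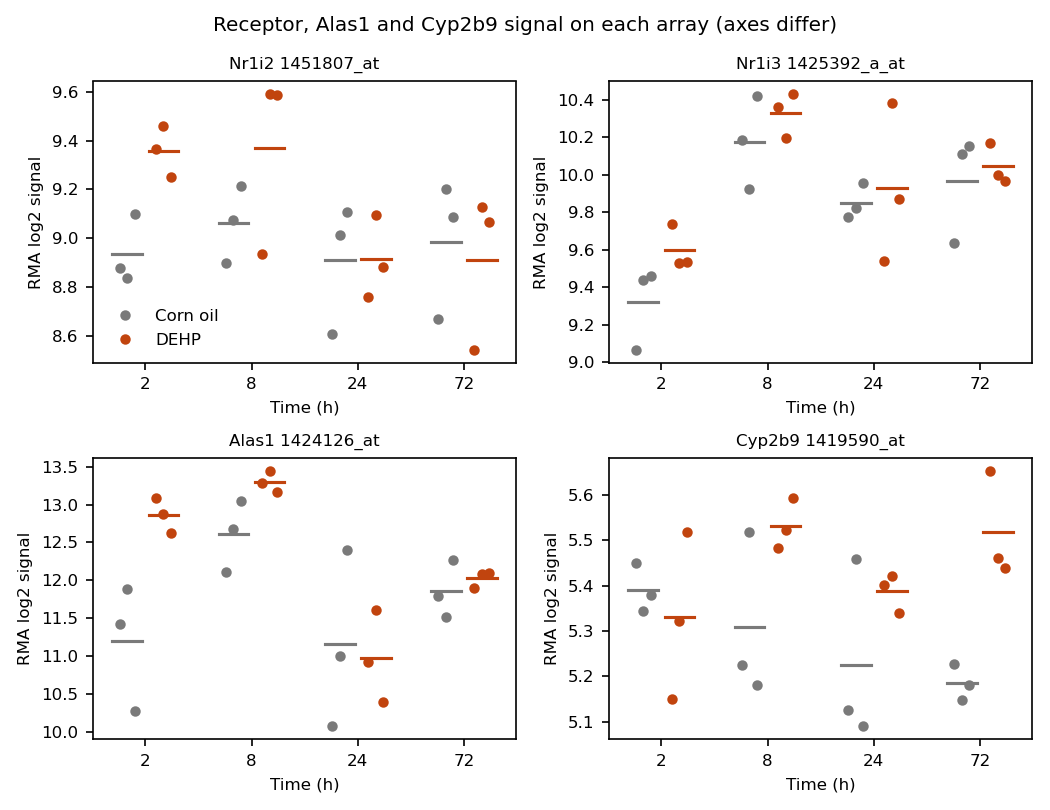
RMA log2 signal (vertical axes, which differ between panels) of Nr1i2, Nr1i3, Alas1 and Cyp2b9 at 2, 8, 24 and 72 h, with 1 point per array and a bar at each group's mean. Alas1 shows separated DEHP and corn oil arrays at 2 h and a corn oil spread from 10.08 to 12.41 at 24 h, and Nr1i3 is lowest at 2 h in both treatments.

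The other known target genes of CAR and PXR were read from lists of measured genes, 1 probe set each. Of 13 further P450 targets, among them the Cyp2c and Cyp3a enzymes, 2 passed at 8 h, both higher, where 1.13% of 18193 genes were called higher and 2.40% lower. Cyp2c55, a Cyp2c enzyme known to respond to CAR and PXR, rose by 1.70 ± 0.29, from 7.68 to 9.38 (limma adjusted p = 0.0014). Cyp3a25, a liver Cyp3a enzyme, rose by 0.44 ± 0.09 (limma adjusted p = 0.0084), a call that ended without corn oil 8 h replicate 2 (0.0679), the array with the large Actb difference. The list's median at 8 h was 0.03, against -0.02 over all genes. None of the 13 passed at 2, 24 or 72 h. The largest values there were 0.75 ± 0.22 for Cyp3a13 at 2 h (limma adjusted p = 0.220), 0.42 ± 0.13 for Cyp3a44 at 24 h (0.354) and 0.85 ± 0.29 for Cyp2c55 at 72 h (0.123). Cyp3a44 passed at 24 h without corn oil 24 h replicate 2, at 0.56 (limma adjusted p = 0.0474). Its 24 h signal was low, with means of 5.04 in corn oil and 5.47 with DEHP, below the array medians.

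At 8 h, where 1.13% of genes were called higher and 2.4% lower, 4 of 21 conjugation enzymes and transporters rose and none fell. They included Ces2a, a carboxylesterase, at 0.86 ± 0.19, Papss2, which makes the sulfate donor, at 0.83 ± 0.19, and Aldh1a7, an aldehyde dehydrogenase, at 0.39 ± 0.08. The fourth, named here to complete the count, was the glucuronosyltransferase Ugt2b34 at 0.35 ± 0.09. The 4 Papss2 probe sets ran from 0.08 to 1.30. The median over the list was 0.24 at 8 h, against -0.02 over all genes. The count fell from 4 to 0 without corn oil 8 h replicate 1 and to 1 without DEHP 8 h replicate 1. The call of Ces2a also ended without DEHP 8 h replicate 3 (limma adjusted p = 0.0643) and that of Papss2 without DEHP 8 h replicate 2 (0.059).

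At 72 h 4 of these 21 rose and none fell, where 0.726% of genes were called higher and 2.06% lower. Gsta2, a glutathione transferase, rose by 1.75 ± 0.38 (limma adjusted p = 0.020), Abcc3, a conjugate exporter of the basolateral membrane, by 0.93 ± 0.21 (0.0258) and Ces2a again by 0.93 ± 0.19 (0.0158). The fourth, again named to complete the count, was the epoxide hydrolase Ephx1 at 0.83 ± 0.17. The list's median was 0.17, against -0.03 over all genes. This count fell to 0 without DEHP 72 h replicate 2 and to 2 without DEHP 72 h replicate 1. The call of Abcc3 also ended without corn oil 72 h replicate 1 or 3 or DEHP 72 h replicate 3. None of the 21 passed at 2 h, where the median was -0.19 and Gstm3 read -0.64 ± 0.29, though 1 was called lower at 2 h without corn oil 72 h replicate 1, nor at 24 h, where Abcc3 read 0.75 ± 0.21 (limma adjusted p = 0.289).

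Among 19 partners and regulators of the receptors, Gadd45b, a stress-response gene whose product is known as a coactivator of CAR, rose at 2 and 8 h. Its corn oil and DEHP means were 7.10 and 9.44 at 2 h and 7.12 and 9.42 at 8 h, differences of 2.33 ± 0.32 (limma adjusted p = 0.0004) and 2.29 ± 0.32 (0.00015). Both calls held without any 1 array, but the 3 Gadd45b probe sets ran from 0.01 to 3.30 at 2 h and from 0.33 to 2.49 at 8 h. Gadd45b was the only 1 of the 19 to pass at 2 h, where 0.451% of genes were called higher and 0.148% lower. Without corn oil 2 h replicate 1, a gene of this list was also called lower.

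At 8 h Hsp90aa1, a chaperone of the cytoplasmic CAR complex, was also called higher, at 0.48 ± 0.12. Rxra, the partner of both receptors, was called lower, at -0.38 ± 0.09. At that time 1.13% of all genes were called higher and 2.4% lower. The call of Hsp90aa1 ended in 4 of the 24 fits without 1 array (without corn oil 8 h replicate 1 or 3, or DEHP 8 h replicate 1 or 3). That of Rxra ended in 5 of them (without corn oil 8 h replicate 1 or 2, or any DEHP 8 h array), and the 3 Rxra probe sets ran from -0.38 to 0.21. None of the 19 passed at 24 h, where 0.209% of genes were called higher and 0.0330% lower. The largest value there was -0.85 ± 0.41 for the coactivator Ppargc1a.

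At 72 h 2 of the 19 were called lower and none higher, where 2.06% of genes were called lower and 0.726% higher. Egfr, the growth factor receptor whose signal is known to hold CAR inactive, read -0.89 ± 0.20 and Hnf4a, a liver nuclear receptor, -0.46 ± 0.11. The 7 Egfr probe sets ran from -1.13 to 0.14. The call of Egfr ended without corn oil 72 h replicate 1, at -0.70 (limma adjusted p = 0.0747). The count fell to 0 without corn oil 72 h replicate 2, DEHP 72 h replicate 2 or DEHP 72 h replicate 3, and to 1 without corn oil 72 h replicate 3 or DEHP 72 h replicate 1. The part of the hepatocyte, zonal, macrophage and endothelial markers given above in the list counts at 8 and 72 h was not tested.

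None of 6 genes of P450 electron transfer besides Por, such as the cytochrome b5 genes and their reductases, passed at any time. Their medians ran from -0.06 to 0.09 over the 4 times, and the largest single value was -0.35 ± 0.11 for Cyb5r3 at 2 h (limma adjusted p = 0.302). Of 10 genes of haem synthesis and breakdown other than Alas1, none passed at 2 or 24 h. Cpox, a late enzyme of haem synthesis, read 0.40 ± 0.16 at 2 h.

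Hmox1, which breaks haem down, was called higher at 8 h, at 0.58 ± 0.15, and lower at 72 h, at -0.67 ± 0.15. The first call ended without corn oil 8 h replicate 2 or DEHP 8 h replicate 1 or 2. The second ended without any 1 of the 72 h arrays other than corn oil 72 h replicate 2. Blvrb, a biliverdin reductase, was called higher at 72 h, at 0.61 ± 0.13, and that call ended without corn oil 72 h replicate 2 or DEHP 72 h replicate 1 or 2. It read 0.54 ± 0.13 at 24 h (limma adjusted p = 0.133). Over all genes, 1.13% were called higher and 2.4% lower at 8 h, and 0.726% higher and 2.06% lower at 72 h.

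The 3' to 5' difference of the Actb control was 0.586 to 1.46 on the corn oil 8 h arrays and 0.555 to 0.714 on the DEHP 8 h arrays. With that difference as a covariate, the 8 h calls of Cyp3a25 (0.38, limma adjusted p = 0.108), Ces2a (0.82, 0.105), Papss2 (0.84, 0.0747), Rxra (-0.34, 0.183) and Hmox1 (0.48, 0.269) ended. Without the 2 arrays numbered RC14, the 8 h calls of Aldh1a7, Hsp90aa1, Rxra and Hmox1 ended (limma adjusted p from 0.0537 to 0.108). The 3 Cyp2b10 calls at 8 h held in both of these fits.

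**Figure D4:**
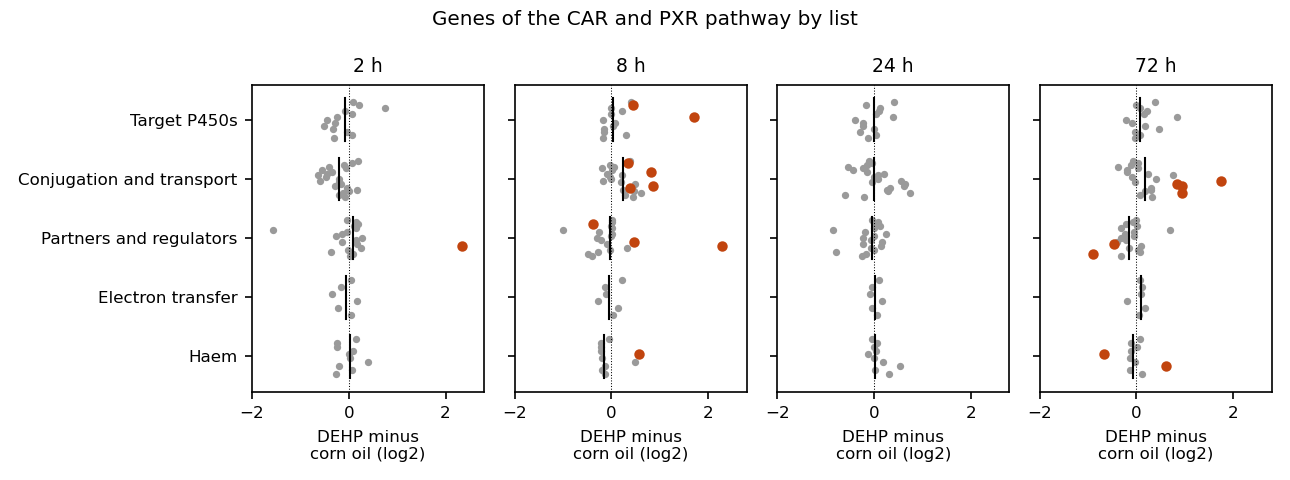
Difference between DEHP and corn oil in log2 signal (horizontal axis) for each measured gene of 5 pathway lists (rows) at each time (panels), with larger red points for genes at adjusted p under 0.05 and a black bar at each list's median. Called genes appear at 8 and 72 h in the conjugation and transport list (4 at each), and Gadd45b stands apart at 2.33 and 2.29 at 2 and 8 h.

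Likeness to Cyp2b10 was read as the correlation of signals over the 24 arrays. Gpat4 (r = 0.868), which starts glycerolipid synthesis, Acad11 (0.868), an acyl-CoA dehydrogenase, Acot4 (0.863) and Acot3 (0.861), peroxisomal acyl-CoA thioesterases, Pnpla2 (0.861), the main triglyceride lipase, and Prune1 (0.860) led the order. Their own differences at 8 h ran from 0.73 for Acad11 to 3.33 for Acot3. They were picked by correlation over these same arrays, so their 8 h rise is part of that choice and no separate support. Without the 3 DEHP 8 h arrays the correlations over the remaining 21 fell to between 0.160 for Pnpla2 and 0.543 for Acad11, so the likeness rested mainly on those 3 arrays. Nr1i3 was most closely followed by Gna12 (r = 0.855), Sh3bgrl2 (0.848) and N4bp2l1 (0.837), and these values were 0.807 or higher without the DEHP 8 h arrays. All of these correlations share the same libraries and treatment groups.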

How the data were processed

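The authors deposited RMA values of Affymetrix mouse arrays, per the submitters' processing notes; the RMA version is not given in the sources used here. By their range (2.84 to 14.55) the deposited values are log2 signals. RMA includes background correction, quantile normalization and a fit of probe effects, which makes arrays alike in overall signal. The 64 control probe sets were left out, which left 45037. Of these, 34945 had 1 gene symbol, 932 had several and 9160 had none. A gene of a list was read from its probe set of highest mean.

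Each probe set was fitted with limma 3.58.1 in R 4.3.3 (1 mean per group, 16 residual degrees of freedom), tested on simulated data. Named genes were all member probe sets, up to 3 called genes per list, time and direction by size (the largest change where none was called), and the genes of highest correlation. The members and lists were chosen with earlier results of these data known. List sizes measured were 13 of 17 (P450 targets), 21 of 26 (conjugation and transport), 19 of 23 (partners), 6 of 6 (electron transfer), 10 of 11 (haem), 4 of 9 (female-biased) and 6 of 10 (male-biased). Marker lists covered hepatocytes, macrophages, endothelium, stellate, bile duct, lymphoid, neutrophil, red blood and pancreas cells. Alternatives varied the replicate block, filters, probe set summary, moderation, weights, scaling, threshold and arrays. Promoter windows came from RefSeq (GRCm38.p6), and all 8 genes matched.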

Additional observations from a re-analysis of the deposited data

How the results depend on the processing

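No member result changed direction where it was called, and the 8 h calls of Cyp2b10 held under every alternative that kept its probe sets. With 1 probe set per gene, or the mean of a gene's probe sets, Cyp2b10 can add only 1 to a count. The count of called members was then 1 of 6 genes at 8 h and 1 of 6 at 72 h. At an adjusted p under 0.01 the 72 h count was 1. The count of members whose corn oil level differed between times was 1, and it was 0 at an adjusted p under 0.01 and 0 without the 2 arrays numbered RC14. Leaving out 1 array at a time gave counts of 0 to 2 at 2 h, 3 to 3 at 8 h, 0 to 0 at 24 h, 1 to 2 at 72 h and 0 to 3 for corn oil times, and 0 to 0 for an effect that differed between times.

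Replicate numbers are shared between groups, but same-numbered arrays did not all deviate together. Only 2 of 12 pairs had a correlation over 0.1 (range -0.239 to 0.231), both at 8 h, where the 3 pairs gave 0.231, 0.157 and 0.0635, and 10 of 24 arrays correlated best with their own number. With the replicate number as a fixed block, 4 member probe sets were called at 8 h, the addition being Nr1i2 1425723_at (0.62, limma adjusted p = 0.0358; 0.0292 with first against later replicates as the block). Of 19 calls named in the pathway and sex-biased lists, 5 held without any 1 array. The number of arrays limits precision, and low signals such as that of Cyp2b9 may be compressed.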

Other observations

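Liver genes known to differ between the sexes included 2 calls at 8 h, where 1.13% of all genes were called higher and 2.4% lower. Of 4 measured female-biased genes, Acot3, a peroxisomal thioesterase, rose by 3.33 ± 0.35 (limma adjusted p = 5.71e-06), and of 6 measured male-biased genes, Hsd3b5, a steroid dehydrogenase, fell by 1.96 ± 0.18 (5.77e-07). Both calls held without any 1 array. The lists did not move as wholes at 8 h, when 2 of the 4 female-biased and 2 of the 6 male-biased genes read above corn oil. The male-biased Elovl3 read 0.89 ± 0.33 there (limma adjusted p = 0.209), with DEHP arrays all above corn oil arrays, as in 5.62% of all probe sets. No gene of either list passed at 2, 24 or 72 h in the comparison described in the methods, and Acot3 lay near the threshold. At 2 h Acot3 passed without corn oil 8 h replicate 1 or 3 or DEHP 24 h replicate 2, without the 2 arrays numbered RC14 (limma adjusted p = 0.0017) and with the 6 arrays of that time alone (0.0029). It also passed at 2 h with the filter at the 40th percentile (limma adjusted p = 0.0475), with 1 probe set per gene (0.0394) and after quantile normalization (0.0476). At 72 h Acot3 passed without corn oil 8 h replicate 3 (limma adjusted p = 0.023), without the 2 RC14 arrays (0.0215), with the 6 arrays of that time alone (0.0252) and with array weights (0.0421). Cyp3a44, a female-biased gene, passed at 24 h without corn oil 24 h replicate 2, at the low signal given above. Acot3 averaged 8.71 with DEHP and 7.21 in corn oil at 2 h (limma adjusted p = 0.0646), and its differences were 0.47 at 24 h and 1.04 at 72 h. Elovl3, a male-biased fatty acid elongase, read 0.61 at 2 h and 0.47 at 24 h, and Cyp7b1, a male-biased hydroxylase, read -0.38 at 72 h.

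Alas1 was most closely followed over the 24 arrays by Palmd (r = 0.909), Hyal2 (0.860) and Brap (0.853). The values without the DEHP 8 h arrays were 0.877, 0.803 and 0.798. Palmd read 9.40, 9.25 and 9.17 with DEHP at 2 h against 8.69, 8.84 and 8.54 in corn oil, a difference of 0.58 ± 0.13 (limma adjusted p = 0.0444). Its corn oil 24 h arrays read 8.32, 8.37 and 8.84, with replicate 3 highest, as for Alas1. Palmd was picked by its correlation with Alas1 over these same arrays. Its 2 h difference and its high replicate 3 are thus part of that choice and no separate support.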
